A study of Homo sapiens with 6 samples.

Results

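Transcripts of the BCL2 family were measured in DU145 cells with and without overexpression of the circular RNA circCSPP1. The 10 genes were taken by their symbols from a table of 19727 genes, and all 10 symbols had a row. They were the anti-apoptotic genes BCL2, BCL2L1 and MCL1, the effectors BAX and BAK1, and the BH3-only genes BBC3, PMAIP1, BCL2L11, BID and BAD. DU145 is an established, androgen-independent prostate cancer cell line that was derived from a metastasis. The study made stable DU145 lines with lentivirus-circCSPP1 or with the control lentivirus-NC, selected both with puromycin, and sequenced polyadenylated RNA from 3 libraries of each, labelled DU145 OE and DU145 NC. Both groups therefore carried a lentivirus and had been drug selected, and no untransduced DU145 library was compared. Whether a line was a clone or a pool, and whether the libraries of a group came from separate cultures, is not given in the sources used here, so p-values measure only the spread between these libraries, which may be technical.

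Proteins of the BCL2 family control the permeability of the outer mitochondrial membrane, the step that commits a cell to intrinsic apoptosis. Anti-apoptotic proteins hold the effectors BAX and BAK in check, BH3-only proteins bind the anti-apoptotic proteins or activate the effectors, and active BAX and BAK release cytochrome c, which assembles the apoptosome with APAF1 and caspase-9. MCL1 and BCL-XL, the main product of BCL2L1, are well known as survival factors of prostate cancer cells, and DU145 is known as a line that lacks BAX protein because of frameshift mutations, so an amount of BAX transcript is not an amount of protein.

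The deposited value is FPKM, a count of fragments divided by transcript length and by the size of the library, and since it is per length it was used to compare levels between genes. Differences between groups were tested on log2(FPKM + 1) with limma, with Benjamini-Hochberg adjustment over the 12322 genes whose mean reached 1 FPKM, and a gene is said here to have risen or fallen where its adjusted p was under 0.05. A log2 fold change on this scale is lentivirus-circCSPP1 minus lentivirus-NC and understates the change of low genes. Values of single libraries are given in the order of replicates 1, 2 and 3 of each group. An exact two-sided permutation test of 3 libraries against 3 cannot give a p below 0.10. In bulk RNA, fewer cells that express a gene and less of its RNA per cell cannot be told apart.

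Depth was read from the steps between low FPKM values and came to 28800000 to 36400000 fragments in lentivirus-NC and 28900000 to 34700000 in lentivirus-circCSPP1. CSPP1, the host gene of the circular RNA, had a log2 fold change of 0.94 (limma, adjusted p = 0.0162), from a mean of 9.54 ± 0.493 to one of 19.5 ± 4.44 FPKM (SD, n = 3). Without any 1 of the controls, or without lentivirus-circCSPP1 replicate 3, the adjusted p was 0.0669 to 0.0749, and it was 0.0584 with no filter and 0.0772 without moderation of the variance. A gene-level value does not separate the circle or the vector from the linear transcript, and a circle has no poly(A) tail. The study reported that its lentivirus changed circCSPP1 but neither the mRNA, by qRT-PCR, nor the protein of CSPP1 in DU145. The cause of the difference from the value here was not tested. The 5 epithelial markers KRT8, KRT18, KRT19, EPCAM and CDH1 were all present and all 5 fell, from a summed 2271 to 2361 FPKM in lentivirus-NC to 1046 to 1278 FPKM in lentivirus-circCSPP1. Of 3 prostate luminal markers KLK2 and KLK3 were listed at 0 in every library, and TMPRSS2 was listed at 0 in all but 1 library, with 0.07 FPKM. Sums over 7 markers of blood, endothelial and fibroblast cells were 4.02 to 5.52 FPKM with lentivirus-NC and 1.85 to 3.00 FPKM in lentivirus-circCSPP1, with CD3E listed at 0 and COL1A1 the 1 of the 7 that fell. The part of these markers in the values of the BCL2 family was not tested. On the log2(FPKM + 1) scale lentivirus-circCSPP1 replicates 2 and 3 correlated at 0.990, and replicate 1 with them at 0.970 and 0.979. The lentivirus-NC libraries correlated at 0.991 to 0.992. Each library was also set against the mean of the others in its group over 7663 genes. Transcript GC content and length together accounted for 59.7%, 46.7% and 17.7% of the variance of this difference in lentivirus-circCSPP1 replicates 1, 2 and 3. In the lentivirus-NC libraries they accounted for 0.676% to 1.38%. Replicate 1 leaned to GC-rich transcripts, and replicates 2 and 3 leaned to GC-poor ones against means that held replicate 1. Results are therefore given with and without replicate 1 where this changed them.

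One question of the study was whether circCSPP1 and miR-520h act on autophagy genes through their 3′ UTRs, and the 3′ UTRs of the BCL2 family were therefore searched for matches to the seed of this miRNA. The mature miR-520h (RefSeq, GRCh38.p14, chr19:53742566-53742587, plus strand) is shown with its seed, bases 2 to 8, in capitals. Seed matches were read from the longest complete 3′ UTR of each gene in GENCODE release 29 (GRCh38), on the strand of the transcript, and the matched bases are in capitals. An A opposite base 1 of the miRNA was counted with the match and is in capitals too, though it does not pair with the A there. The 7 sites shown are those of BCL2L11 and PMAIP1, which each had 2 matches of at least 7 bases, and 3 of the 4 sites of MCL1, the family gene that rose.
miR-520h: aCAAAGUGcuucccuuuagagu
BCL2L11, base 1478 of the 3′ UTR, exon 6 of 6, chr2:111165443-111165450: tcctttaaattCACTTTGAaacaggcctca
BCL2L11, base 2053 of the 3′ UTR, exon 6 of 6, chr2:111166018-111166024: atctccttgggACTTTGActtatttttaa
PMAIP1, base 217 of the 3′ UTR, exon 2 of 2, chr18:59902970-59902976: cattataaaacCACTTTGtttattttaaa
PMAIP1, base 668 of the 3′ UTR, exon 2 of 2, chr18:59903421-59903427: actggaaaataACTTTGAaaaaattggat
MCL1, base 235 of the 3′ UTR, exon 4 of 4, chr1:150577135-150577140: gcaacaaacaaACTTTGtttgggaagct
MCL1, base 555 of the 3′ UTR, exon 4 of 4, chr1:150576815-150576820: atacctgttatACTTTGgcttggtttcc
MCL1, base 775 of the 3′ UTR, exon 4 of 4, chr1:150576595-150576600: tacccttttgaACTTTGcaacttccgta

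Of the 10 genes, 6 held at least 1 match of 6 bases, ACTTTG, in their 3′ UTR, with 13 sites in all, and BCL2L1, BAK1, BBC3 and BAD held none. A match of 7 bases, either CACTTTG or ACTTTGA, was found in 3 of the 10, BCL2, PMAIP1 and BCL2L11. Over 19132 genes with a complete 3′ UTR, 43.4% held a match of 6 bases and 29.2% a match of 7. The 3′ UTRs of the family were long, with a median of 1473.5 nt against 1101 nt over all genes, and the longest were those of BCL2 with 5279 nt and BCL2L11 with 4480 nt. BCL2L11 held the only match of 8 bases in the family, CACTTTGA, in which the last A is again the unpaired one. A match is a run of letters and no evidence of binding.

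Levels within the family spanned 3 orders of magnitude in both groups. In lentivirus-NC the order of the group means was MCL1, BCL2L1, BAD, BID, BAX, PMAIP1, BAK1, BCL2L11, BBC3 and BCL2, from 164 FPKM for MCL1 to 0.113 FPKM for BCL2. Neighbours in this order whose libraries overlapped were MCL1 with BCL2L1, BCL2L1 with BAD, and BCL2L11 with BBC3. In lentivirus-circCSPP1 the order was MCL1, BCL2L1, BAD, BAX, BID, PMAIP1, BAK1, BBC3, BCL2L11 and BCL2, from 243 FPKM to 0.163 FPKM, and overlaps were seen for MCL1 with BCL2L1, BID with PMAIP1, and BBC3 with BCL2L11. BAX and BID thus stood in opposite order in the 2 groups, and in each group their libraries did not overlap. In lentivirus-NC they all but touched in replicate 3, with 47.44 FPKM for BID and 47.43 FPKM for BAX. Neither gene had an adjusted p under 0.05 in limma.

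**Figure D1:**
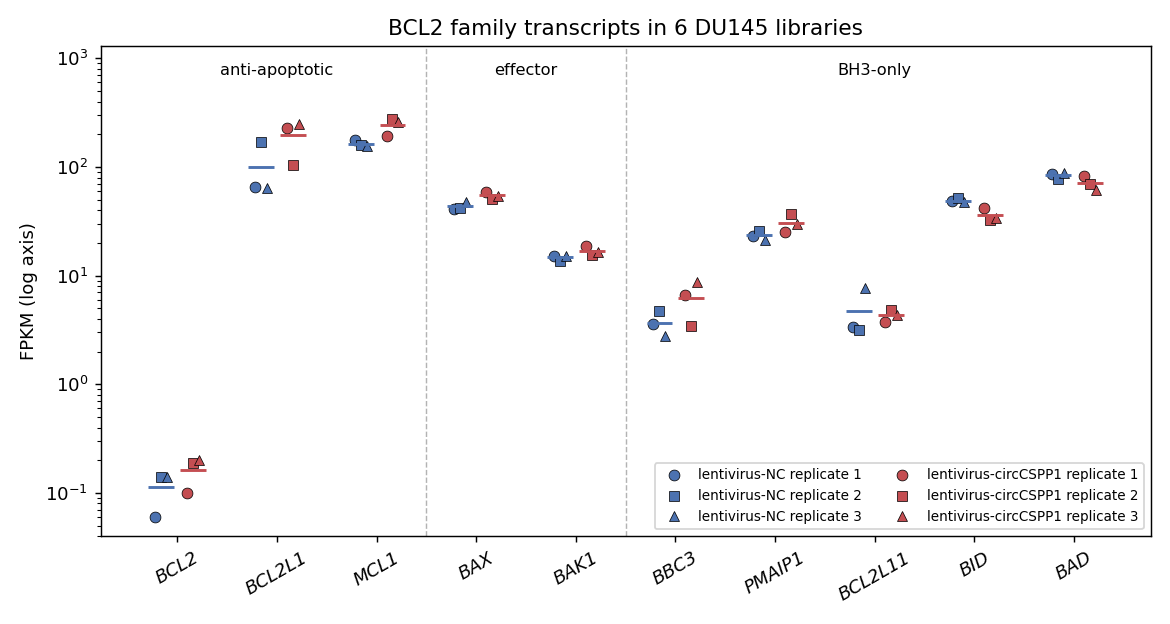
FPKM of the 10 BCL2 family genes (log axis) in the 3 lentivirus-NC libraries (blue) and the 3 lentivirus-circCSPP1 libraries (red), with a shape for each replicate number and a bar at each group mean. MCL1 and BCL2L1 lie highest, BCL2 lies under 0.20 FPKM or at it in every library, and the red and blue points of MCL1, BAX, BAK1 and BID do not overlap.

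Of the 10 genes 9 reached a mean of 1 FPKM and were tested, and 1 of them, MCL1, had an adjusted p under 0.05 in limma, in the direction of a rise. Among all tested genes 11.4% were called, 4.69% as higher and 6.66% as lower, so the share of the family, 1 of 9, was close to that of all genes. An unadjusted p under 0.05 was seen for 4 of the 9, MCL1, BAX, PMAIP1 and BID, beside 28.2% of all tested genes. The groups did not overlap in 4 of the 9, MCL1, BAX, BAK1 and BID, beside 36.4% of all tested genes. The median log2 fold change of the 9 was 0.32, with 6 positive and 3 negative values from -0.44 to 1.03, where the median of all tested genes was -0.028. At the thresholds the study used, an unadjusted p of 0.01 and a change of 1.5 either way on the log2 scale, 0.195% of all tested genes passed and 0 of the 9 did.

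MCL1, the anti-apoptotic protein with a short half-life that binds BAK, PMAIP1 (NOXA) and BCL2L11 (BIM), was the most abundant transcript of the family by group mean. MCL1 lies on chromosome 1 (GRCh38, chr1:150574551-150579738, minus strand). It measured 175.78, 159.01 and 156.89 FPKM with lentivirus-NC and 190.94, 275.19 and 262.11 FPKM with lentivirus-circCSPP1. The groups did not overlap, and replicate 1 of lentivirus-circCSPP1 lay nearest to the controls. The mean rose from 164 ± 10.3 to 243 ± 45.3 FPKM (SD, n = 3), a ratio of 1.48, and the log2 fold change on the log2(FPKM + 1) scale was 0.55 (standard error 0.14, 95% interval 0.22 to 0.88; limma, adjusted p = 0.0482). The exact permutation test gave p = 0.10, the smallest it can give. The adjusted p lay close to the threshold and the call ended under many other settings: it was 0.0503 with robust eBayes, 0.0520 with a minimum of 5 FPKM, 0.0852 after quantile normalization, 0.0678 with a block for the replicate number, 0.136 with no filter and 0.156 without moderation of the variance. Without lentivirus-circCSPP1 replicate 1 the log2 fold change was 0.71 (adjusted p = 0.00189), while the adjusted p was 0.115, 0.166 and 0.157 without lentivirus-NC replicates 1, 2 and 3, and 0.0920 and 0.156 without lentivirus-circCSPP1 replicates 2 and 3. Of the 18 alternatives 7 kept the call, and all 18 kept the direction.

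BCL2L1 encodes BCL-XL and, by splicing, the pro-apoptotic BCL-XS, which a value per gene does not separate. It lies on chromosome 20 (chr20:31664452-31723989, minus strand) and has 9 coding transcripts of 381 to 2610 nt in GENCODE. BCL2L1 measured 65.42, 168.32 and 63.66 FPKM with lentivirus-NC and 230.42, 104.97 and 249.85 FPKM with lentivirus-circCSPP1. The groups overlapped: the second control library was high, at more than the level of the second lentivirus-circCSPP1 library, which was lowest in its own group. The group means were 99.1 ± 59.9 FPKM and 195 ± 78.6 FPKM (SD, n = 3), and the log2 fold change of 1.03 (standard error 0.45, 95% interval -0.018 to 2.07) was the largest of the family but did not pass the test (limma, adjusted p = 0.183). The spread within groups, a pooled SD of 0.74 on the log2(FPKM + 1) scale, was larger than that of 99.3% of the tested genes, whose median was 0.16. The exact permutation test gave p = 0.20, and the adjusted p was 0.0728 to 0.419 over the 18 alternatives. Of the exon bases of BCL2L1, 1424 of 3314 overlap the antisense gene ABALON, and since the strand setting of the libraries is not given in the sources used here, fragments of the 2 genes cannot be told apart.

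BCL2, the founding member of the family, was at the edge of detection. It lies on chromosome 18 (chr18:63123346-63320128, minus strand). Its values were 0.06, 0.14 and 0.14 FPKM with lentivirus-NC and 0.10, 0.19 and 0.20 FPKM with lentivirus-circCSPP1. The groups overlapped, and at the depth of these libraries such values stand for about 6 to 21 fragments with the shortest coding transcript and 13 to 49 with the longest. The means, 0.113 ± 0.0462 FPKM and 0.163 ± 0.0551 FPKM (SD, n = 3), were under the minimum for the test (exact permutation test, p = 0.30).

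The effectors BAX and BAK1 encode the proteins that form pores in the outer membrane. BAX lies on chromosome 19 (chr19:48954815-48961798, plus strand) and measured 41.37, 42.21 and 47.43 FPKM with lentivirus-NC and 59.00, 51.14 and 54.13 FPKM with lentivirus-circCSPP1. The groups did not overlap, with every control lower, and the means were 43.7 ± 3.28 FPKM and 54.8 ± 3.97 FPKM (SD, n = 3). The log2 fold change of BAX was 0.32 (standard error 0.097, 95% interval 0.094 to 0.55) and did not pass the test (limma, adjusted p = 0.0753; exact permutation test, p = 0.10). It passed after a correction for GC content and length (adjusted p = 0.0175) and without lentivirus-circCSPP1 replicate 1 (0.27, adjusted p = 0.0492), in a range of 0.0175 to 0.253 over the 18 alternatives.

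BAK1 lies on chromosome 6 (chr6:33572547-33580293, minus strand). BAK1 measured 15.31, 13.71 and 15.07 FPKM with lentivirus-NC and 18.79, 15.38 and 16.57 FPKM with lentivirus-circCSPP1. The highest control lay just under the lowest lentivirus-circCSPP1 library, so the groups did not overlap, but the gap was smaller than the range within either group. The means were 14.7 ± 0.863 FPKM and 16.9 ± 1.73 FPKM (SD, n = 3), and the log2 fold change of BAK1 was 0.19 (standard error 0.11, 95% interval -0.071 to 0.45; limma, adjusted p = 0.313; exact permutation test, p = 0.10). The adjusted p of BAK1 stayed above 0.05 under each of the 18 alternatives, from 0.0564 to 0.617.

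BID, which caspase-8 cleaves to link death receptors with the mitochondrial pathway, was the BH3-only gene with the clearest difference, and it was lower. BID lies on chromosome 22 (chr22:17734138-17774770, minus strand) and measured 48.25, 51.58 and 47.44 FPKM with lentivirus-NC and 42.02, 32.25 and 34.24 FPKM with lentivirus-circCSPP1. All 3 lentivirus-circCSPP1 libraries were below the controls, and replicate 1 was again the nearest to them. The means were 49.1 ± 2.19 FPKM and 36.2 ± 5.16 FPKM (SD, n = 3). The log2 fold change of -0.44 (standard error 0.12, 95% interval -0.71 to -0.17) missed the threshold by a small margin (limma, adjusted p = 0.0512; exact permutation test, p = 0.10). It passed after quantile normalization (adjusted p = 0.0491), after the correction for GC content and length (0.0288) and without lentivirus-circCSPP1 replicate 1 (-0.55, adjusted p = 0.00376). Over the 18 alternatives the adjusted p of BID was 0.00376 to 0.190.

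PMAIP1 encodes NOXA, a BH3-only protein that binds MCL1 in particular. PMAIP1 lies on chromosome 18 (chr18:59899948-59904306, plus strand) and measured 23.22, 25.89 and 21.34 FPKM with lentivirus-NC and 25.23, 37.07 and 29.94 FPKM with lentivirus-circCSPP1. Replicate 1 of lentivirus-circCSPP1 fell within the range of the controls and the other two lay above it. The means were 23.5 ± 2.29 FPKM and 30.7 ± 5.96 FPKM (SD, n = 3), and the log2 fold change of 0.36 (standard error 0.15, 95% interval 0.0098 to 0.71) did not pass the test (limma, adjusted p = 0.167; exact permutation test, p = 0.20). When lentivirus-circCSPP1 replicate 1 was left out, this value was 0.49 (adjusted p = 0.0283), and after the correction for GC content and length 0.44 (adjusted p = 0.0133), and the range over the 18 alternatives was 0.0133 to 0.395.

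BBC3 encodes PUMA, which binds all anti-apoptotic members. BBC3 lies on chromosome 19 (chr19:47220822-47232766, minus strand) and measured 3.62, 4.71 and 2.76 FPKM with lentivirus-NC and 6.70, 3.41 and 8.74 FPKM with lentivirus-circCSPP1. The groups overlapped through replicate 2, which was the highest control and the lowest lentivirus-circCSPP1 library, the same arrangement as for BCL2L1. The means were 3.70 ± 0.977 FPKM and 6.28 ± 2.69 FPKM (SD, n = 3), and the log2 fold change was 0.58 (standard error 0.30, 95% interval -0.11 to 1.27; limma, adjusted p = 0.250; exact permutation test, p = 0.30). When lentivirus-circCSPP1 replicate 2 was left out, this value was 0.90 (adjusted p = 0.0442, in a range of 0.0442 to 0.534 over 17 alternatives). The spread of BBC3 within groups was larger than that of 97.2% of the tested genes.

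BCL2L11 encodes BIM, a direct activator of BAX and BAK, and did not show a direction. BCL2L11 lies on chromosome 2 (chr2:111119378-111168447, plus strand) and measured 3.38, 3.13 and 7.65 FPKM with lentivirus-NC and 3.76, 4.81 and 4.33 FPKM with lentivirus-circCSPP1. The third control library alone was high, and the lentivirus-circCSPP1 libraries lay between it and the other controls. The means were 4.72 ± 2.54 FPKM and 4.30 ± 0.526 FPKM (SD, n = 3), and the difference was -0.03 on the log2 scale (standard error 0.28, 95% interval -0.67 to 0.61; limma, adjusted p = 0.962; exact permutation test, p = 1). Without lentivirus-NC replicate 3 the sign turned, to 0.31 (adjusted p = 0.286, in a range of 0.286 to 1 over 17 alternatives). BCL2L11 has 17 coding transcripts of 243 to 5231 nt, and 727 of its 6658 exon bases overlap MIR4435-2HG on the opposite strand.

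BAD, a BH3-only protein that growth factor signalling holds inactive by phosphorylation, was the third most abundant of the family. BAD lies on chromosome 11 (chr11:64269830-64284704, minus strand) and measured 85.48, 78.23 and 88.15 FPKM with lentivirus-NC and 82.81, 70.02 and 61.69 FPKM with lentivirus-circCSPP1. The first lentivirus-circCSPP1 library fell within the range of the controls and the other two lay under it. The means were 84.0 ± 5.13 FPKM and 71.5 ± 10.6 FPKM (SD, n = 3), and the log2 fold change was -0.24 (standard error 0.12, 95% interval -0.52 to 0.042; limma, adjusted p = 0.245; exact permutation test, p = 0.20). When lentivirus-circCSPP1 replicate 1 was left out, the value was -0.35 (adjusted p = 0.0255, in a range of 0.0255 to 0.541 over the 18 alternatives). BAD shares 404 of its 1708 exon bases with GPR137 on the opposite strand, which measured 24.1 to 31.7 FPKM over the 6 libraries.

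**Figure D2:**
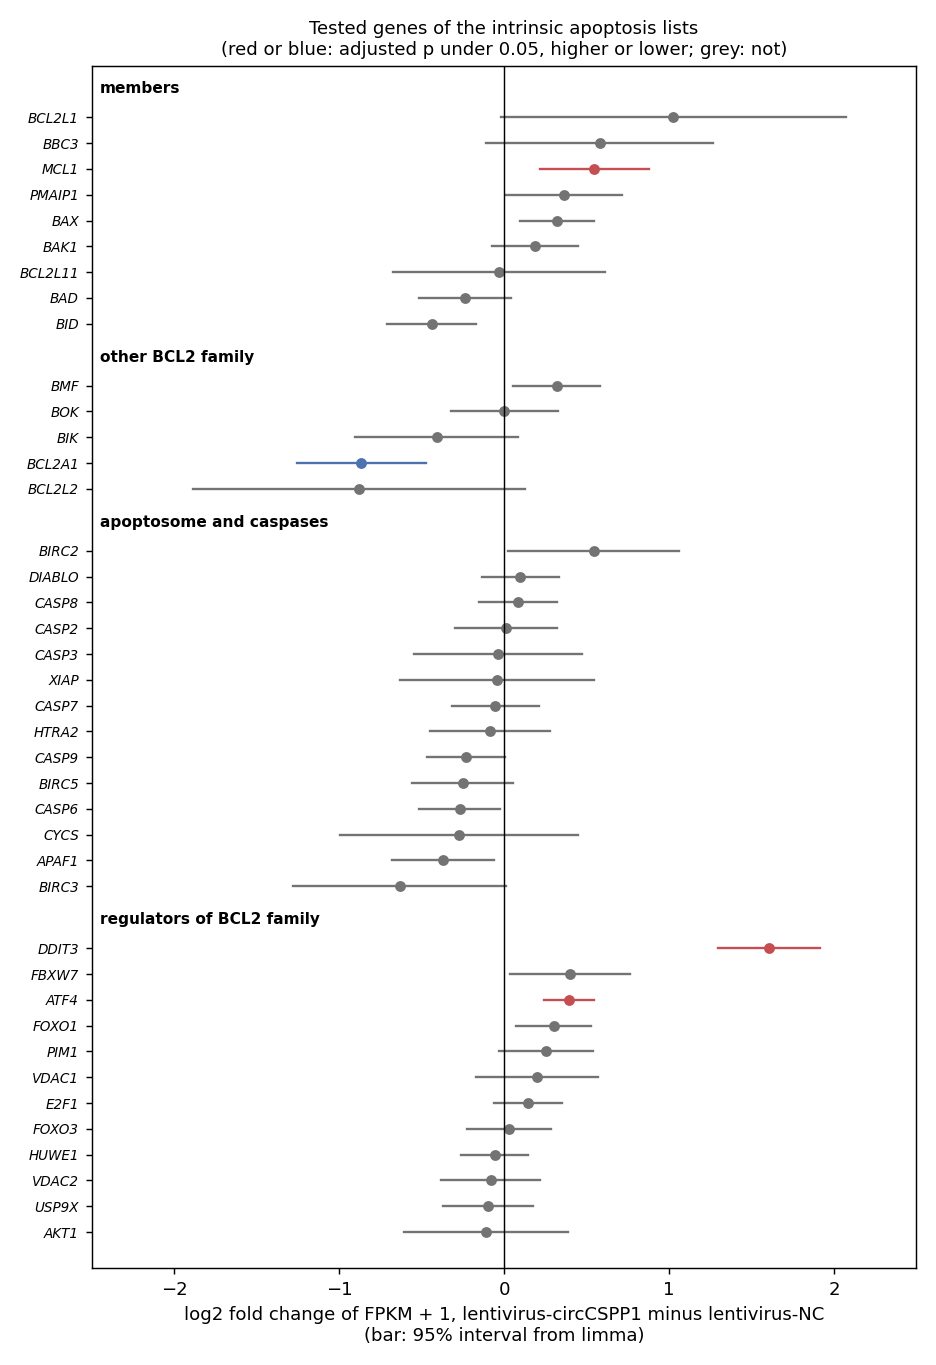
Log2 fold change of log2(FPKM + 1), lentivirus-circCSPP1 minus lentivirus-NC, for the tested genes of the BCL2 family and of 3 related lists, as a point with the 95% interval from limma (3 libraries a group); red and blue mark an adjusted p under 0.05. MCL1, ATF4 and DDIT3 are red and BCL2A1 is blue, and the intervals of BCL2L1 and BCL2L2 are among the widest.

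The levels of the 10 genes were also summed by role, as a description without a test. The sums leave out the further anti-apoptotic genes BCL2A1, BCL2L2 and BCL2L10, the effector BOK and the BH3-only genes BMF, BIK and HRK. The anti-apoptotic sum was 241.26, 327.47 and 220.69 FPKM with lentivirus-NC and 421.46, 380.35 and 512.16 FPKM with lentivirus-circCSPP1, with means of 263 ± 56.7 FPKM and 438 ± 67.4 FPKM (SD, n = 3). The effector sum had means of 58.4 ± 3.6 FPKM and 71.7 ± 5.70 FPKM, and the BH3-only sum of 165 ± 2.09 FPKM and 149 ± 10.9 FPKM. Libraries of the groups did not overlap in any of the 3 sums. Lentivirus-circCSPP1 was higher in the anti-apoptotic and effector sums and lower in the BH3-only sum. The nearest BH3-only sums were 163.54 FPKM in lentivirus-NC replicate 2 and 160.52 FPKM in lentivirus-circCSPP1 replicate 1. In those libraries BMF, which was left out, measured 13.40 and 18.10 FPKM. The absence of overlap in the BH3-only sum therefore holds only for the 5 genes summed. Of all tested genes, 36.4% had groups without overlap. The anti-apoptotic sum held BCL2L1, with means of 99.1 and 195 FPKM, and MCL1, with means of 164 and 243 FPKM. BCL2L1 had overlapping groups and did not pass the test (limma, adjusted p = 0.183), and neither effector passed it. The lower BH3-only sum came mostly from BID and BAD. BCL2L11 also had a lower mean with lentivirus-circCSPP1, 4.30 against 4.72 FPKM. PMAIP1 and BBC3 had higher means with lentivirus-circCSPP1, and none of the 5 BH3-only genes passed the test. The ratio of the anti-apoptotic to the BH3-only sum was 1.32 to 2.0 in lentivirus-NC and 2.58 to 3.69 in lentivirus-circCSPP1. The ratio of the anti-apoptotic to the effector sum was 3.53 to 5.86 and 5.42 to 7.24, and here the ranges overlapped. MCL1 and BCL2L1 took turns within the anti-apoptotic sum, of which MCL1 held 45.3% to 72.9% depending on the library. These sums are of transcripts, and the proteins bind each other in pairs with different affinities.

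**Figure D3:**
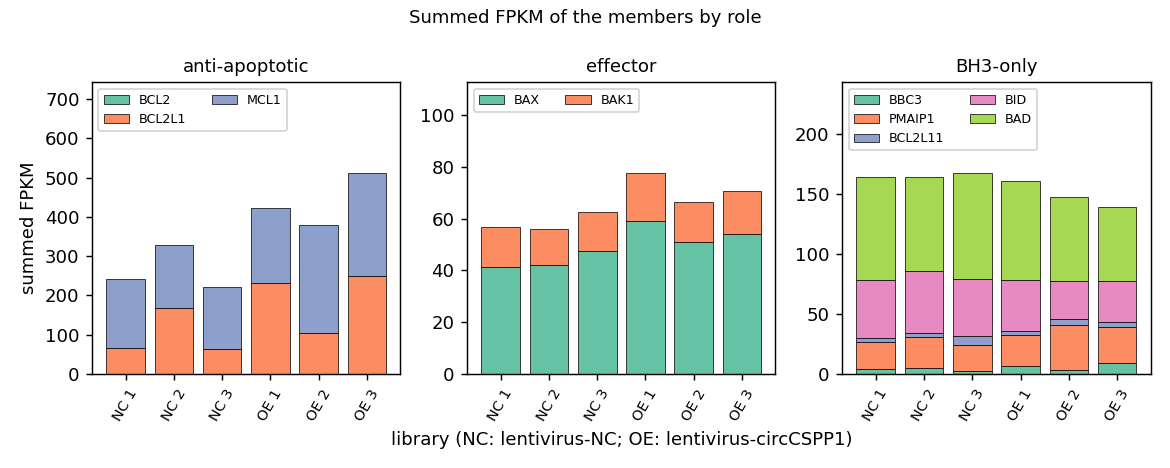
Summed FPKM of the anti-apoptotic, effector and BH3-only genes in each of the 6 libraries (NC, lentivirus-NC; OE, lentivirus-circCSPP1), stacked by gene from 0, with a scale of its own for each panel. The anti-apoptotic sum is 221 to 327 FPKM in NC and 380 to 512 FPKM in OE, and BAD and BID make up most of the BH3-only sum.

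Replicate 1 of lentivirus-circCSPP1 differed from replicates 2 and 3 in opposite directions for different family members. It was the lowest of the 3 for PMAIP1, MCL1, BCL2 and BCL2L11, whose longest coding transcripts have 37.2%, 45.1%, 45.6% and 45.7% GC. It was the highest of the 3 for BID with 49.7% GC, BAK1 with 58.8%, BAX with 58.9% and BAD with 66.3%. BCL2L1 with 56.9% GC and BBC3 with 69.7% lay between replicates 2 and 3. The difference of replicate 1 from the mean of replicates 2 and 3 ranged from -0.49 for MCL1 to 0.51 for BCL2L1 on the log2(FPKM + 1) scale. After a loess correction for GC content and length, MCL1, BAX, PMAIP1 and BID passed the test, 4 of the 9, when 28.5% of all tested genes did. Without replicate 1, MCL1, BAX, PMAIP1, BID and BAD passed, 5 of the 9, and again 28.5% of all tested genes, with 2646 of the 3512 genes in common. The share of the family thus went up together with that of all genes.

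**Figure D4:**
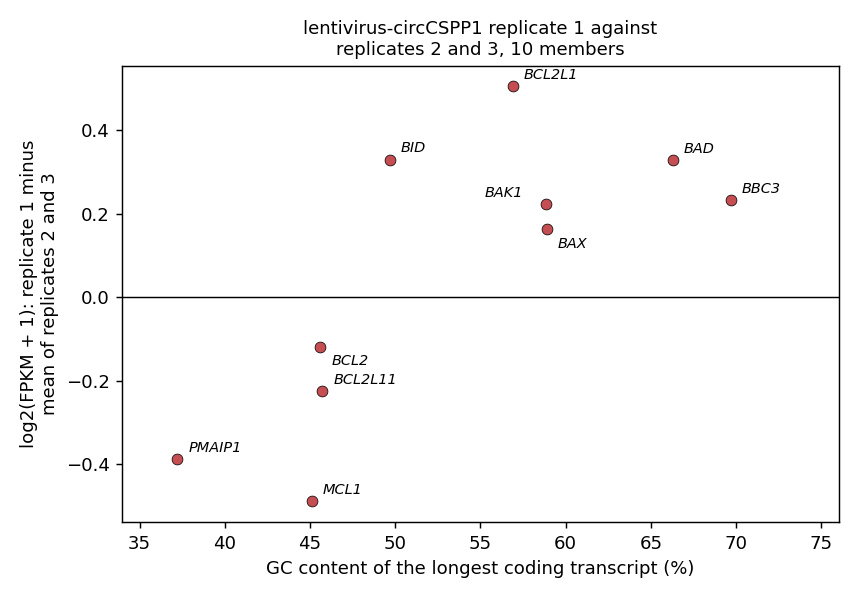
Difference between lentivirus-circCSPP1 replicate 1 and the mean of replicates 2 and 3 on the log2(FPKM + 1) scale against the GC content of the longest coding transcript (%), with 1 point for each of the 10 BCL2 family genes. The 4 genes of 37.2% to 45.7% GC lie under 0 and the 6 genes of 49.7% to 69.7% GC lie above it.

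**Figure D5:**
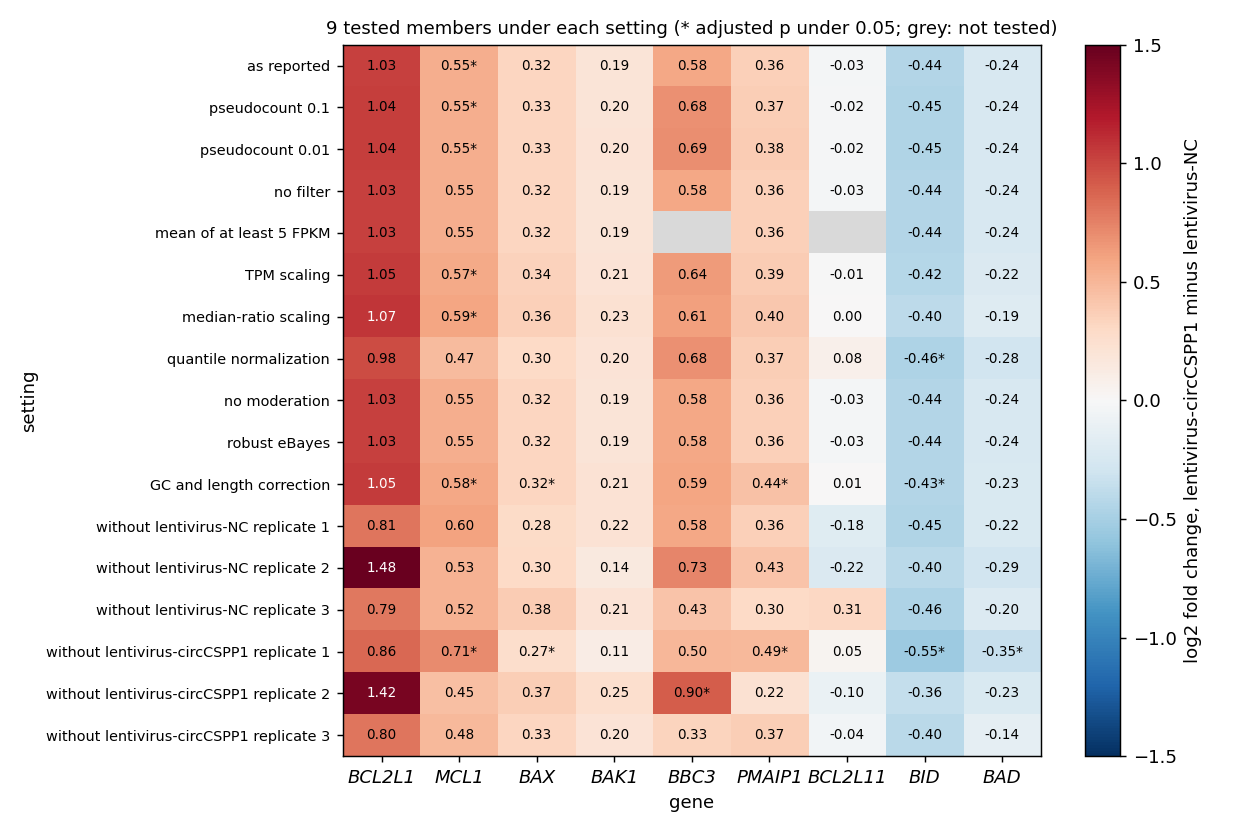
Log2 fold change of the 9 tested BCL2 family genes (columns, blue for negative and red for positive) as reported and under the alternatives without a replicate block (rows); a star marks an adjusted p under 0.05 and a grey cell a gene under the minimum. MCL1 keeps a positive value of 0.45 to 0.71 in each row and a star in some of them, and the values of BCL2L11 lie on both sides of 0.

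The other genes of the pathway were taken from lists written from general knowledge. Among all tested genes 6.66% fell and 11.4% were called either way, and of 7 further BCL2 family genes 5 were tested and 1 fell. This was BCL2A1, an anti-apoptotic NF-kappaB target, which measured 16.44, 14.44 and 14.26 FPKM with lentivirus-NC and 7.06, 6.48 and 10.28 FPKM with lentivirus-circCSPP1. The groups did not overlap, and its log2 fold change of -0.87 (standard error 0.17; limma, adjusted p = 0.0200) was opposite in sign to that of MCL1. The adjusted p of BCL2A1 was 0.0913, 0.0839 and 0.0721 without lentivirus-NC replicates 1, 2 and 3, 0.0664 with no filter and 0.0848 without moderation, over a range of 0.0208 to 0.0913 in the 18 alternatives. BCL2L2, which encodes the anti-apoptotic BCL-w and is named here for its spread, measured 26.98, 28.87 and 25.73 FPKM with lentivirus-NC and 32.90, 8.85 and 9.71 FPKM with lentivirus-circCSPP1. Replicate 1 of lentivirus-circCSPP1 was above the controls and the other two far under them, and the log2 fold change was -0.88 (limma, adjusted p = 0.232), with a spread above that of 99.1% of the tested genes. BCL2L2 was called without replicate 1, and it shares 813 exon bases with the readthrough gene BCL2L2-PABPN1. BCL2L10 and HRK were under the minimum. The 5 tested genes had 2 positive and 3 negative values and a median log2 fold change of -0.41, beside -0.028 for all tested genes.

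Downstream of the family, 0 of 14 apoptosome, caspase and caspase inhibitor genes passed the test in limma, where 11.4% of all tested genes did. Without moderation of the variance 0 passed as well, when only 6.77% of all tested genes did. After the correction for GC content and length 1 passed, APAF1, which was lower, when 28.5% of all tested genes did. With the replicate block added to that correction 0 passed. In the main fit an unadjusted p under 0.05 was seen for 3 of the 14, APAF1, CASP6 and BIRC2, where 28.2% of all tested genes had one. APAF1, the scaffold of the apoptosome, measured 5.95 ± 0.193 FPKM and 4.41 ± 0.769 FPKM (SD, n = 3; limma, adjusted p = 0.117), and the caspase inhibitor BIRC2 15.9 ± 0.815 FPKM and 24.6 ± 8.99 FPKM (limma, adjusted p = 0.161). The 14 genes had 4 positive and 10 negative log2 fold changes and a median of -0.070, beside -0.028 for all tested genes.

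Upstream, 2 of 12 regulators rose, where 4.69% of all tested genes rose and 11.4% were called either way. DDIT3 encodes CHOP, a stress-induced transcription factor that is known to act on BCL2L11 and BBC3, and it measured 24.40, 28.18 and 20.91 FPKM with lentivirus-NC and 69.00, 84.85 and 75.27 FPKM with lentivirus-circCSPP1. Its groups were far apart, the log2 fold change was 1.61 (standard error 0.13; limma, adjusted p = 0.00148), and it was called under each of the 18 alternatives. ATF4, which is known to act on DDIT3 and PMAIP1, went from 296 ± 8.83 FPKM to 389 ± 8.15 FPKM (SD, n = 3; log2 fold change 0.40, standard error 0.064; limma, adjusted p = 0.0113). The adjusted p of ATF4 was 0.0681, 0.0660 and 0.0690 without lentivirus-NC replicates 1, 2 and 3 and 0.0616 without lentivirus-circCSPP1 replicate 3. The 12 regulators had 8 positive and 4 negative log2 fold changes and a median of 0.17, beside -0.028 for all tested genes.

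The tested genes whose pattern over the 6 libraries was nearest to that of MCL1 were SMIM13, IFRD1 and TCEA1. Nearness was the root mean square distance between log2(FPKM + 1) values centred on each gene's mean, and it was 0.044 for SMIM13, 0.049 for IFRD1 and 0.050 for TCEA1. The adjusted p of these genes in limma was 0.0508, 0.0942 and 0.0352.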

How the data were processed

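The data were RNA-seq libraries of DU145 cells, 3 lentivirus-NC and 3 lentivirus-circCSPP1, grouped by their titles. The authors sequenced poly(A)-selected RNA with paired-end reads and deposited 1 table of FPKM values, rounded to 2 decimals. Their processing notes name hg38, and the aligner, the annotation, the program behind FPKM and the strand setting are not given in the sources used here. All 6 columns of values were used and 0 were left over.

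FPKM values are not counts, so limma 3.58.1 (R 4.3.3; moderated two-sided tests with a mean trend and no covariate) was run on log2(FPKM + 1) for the whole table. With the minimum of 1 FPKM, 7405 genes were not tested. Where a symbol had several rows, the row with the highest mean was taken. The fit was tested on simulated data. Depth was the step at which low FPKM values, multiplied by the length of single transcripts under 800 nt, fell on whole multiples (93.2% to 98.8% of 73 to 89 values per library within 0.15 of a step). By chance this share is 30% at a depth fixed beforehand, and it is higher here, since the depth with the largest share was taken. Lengths, GC content, 3′ UTRs and coordinates came from GENCODE release 29, which may not be the annotation behind the FPKM values.

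The genes to name were all 10 family genes, each other listed gene with an adjusted p under 0.05, CSPP1, and the 3 genes nearest in pattern to the called family gene with the largest change. Any other gene in the text was picked with its values known. The members and lists were chosen with earlier results of these data known. The alternatives were pseudocounts of 0.1 and 0.01, no filter, a minimum of 5 FPKM, TPM scaling, median-ratio scaling, quantile normalization, no moderation (a 2-sample test without shared variance), robust eBayes, a block for the replicate number, a loess correction for GC content and length (span 0.5) with and without that block, and leaving out each library. Some genes of the lists, and 1 list, are not reported here. No promoter or protein sequence was used here. Figures were drawn with matplotlib 3.10.9.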

Additional observations from a re-analysis of the deposited data

How the results depend on the processing

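The number of BCL2 family genes called, 1 as reported, was 0 with no filter, with a minimum of 5 FPKM, without moderation, with robust eBayes and with the replicate block, 4 after the correction for GC content and length with and without the block, and 0 to 5 when 1 library was left out. The number among all tested genes, 1399 as reported, was 834 without moderation, 923 with the replicate block, 3512 after the correction, 2742 after the correction with the block, and 300 to 3512 when 1 library was left out (300, 317 and 407 without lentivirus-NC replicates 1, 2 and 3, and 3512, 1160 and 450 without lentivirus-circCSPP1 replicates 1, 2 and 3). Genes past the study's thresholds, 24 as reported, numbered 66 and 75 with pseudocounts of 0.1 and 0.01.

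Of the further BCL2 family genes 0 were called with no filter and without moderation, 2 (BCL2A1 lower, BMF higher) after the correction with and without the block, and 0 to 2 when 1 library was left out. Regulators called, 2 as reported, numbered 3 with no filter and without moderation (ATF4, DDIT3 and FOXO1). They numbered 4 after quantile normalization (FBXW7 added) and 5 after the correction (PIM1 added). The number was 2 after the correction with the block (ATF4 and DDIT3) and 1 to 2 when 1 library was left out. Apoptosome and caspase genes called numbered 1 after the correction (APAF1, lower) and 0 after the correction with the block.

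The log2 fold change of BCL2L11, -0.03 as reported, turned to 0.0045 with median-ratio scaling, 0.080 after quantile normalization, 0.0065 after the correction with and without the block, 0.31 without lentivirus-NC replicate 3 and 0.046 without lentivirus-circCSPP1 replicate 1. Over the settings that left out 1 library it ranged from -0.22 (without lentivirus-NC replicate 2) to 0.31. No other tested family gene changed its direction in the 18 alternatives. The cause of these differences was not tested.

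The labels number the replicates of both groups, and the deviations of samples with the same number correlated at 0.073, 0.0065 and 0.057. The numbers were not taken as pairs in the main fit. Low correlations cannot show that pairs are absent, since GC content and length had a large part in the deviations of the lentivirus-circCSPP1 libraries. The design text of the series calls the samples paired without saying what the pairs share. The best correlation with another number was -0.043, 0.0090 and 0.036 for numbers 1, 2 and 3. With the replicate block the adjusted p of MCL1 was 0.0678, and with the block and the correction it was 0.0219. BCL2 could be tested only with no filter (log2 fold change 0.063, adjusted p = 0.58), and BBC3 and BCL2L11 had no value with a minimum of 5 FPKM.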
